A study of Mus musculus with 3 samples.

Results

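The genes described here are 8 genes best known from smooth muscle and fibroblasts: Tpm1, Tpm2, Myl9, Cald1, Acta2, Tagln, Sparc and Igfbp7. They were chosen by name, with earlier results of these data known. They are 8 of the 32287 features in the deposited matrices, and all 8 were found. Their raw UMIs (unique molecular identifiers, 1 per captured transcript) were read in 6395 epithelial cells of 10457 cells kept. A cell was kept with 500 or more detected genes and at most 15% of UMIs from mt- genes, and was counted as epithelial with at least 1 Epcam UMI, no Ptprc UMI and fewer than 2 Col1a1 UMIs. Cell classes within the epithelium were gated on other marker genes, so no level of the 8 genes entered a gate.

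The libraries came from whole lungs of mice with the genotype Scgb1a1-CreER;Sftpc-DreER;R26-TLR, which were injured with bleomycin and taken 4 weeks later; the labels give the cells as lung epithelial cells and give neither age nor strain. All 3 groups carry both recombinases and the reporter, and all were injured. The Club-Tracer library was sorted for tdTomato (switched on from Scgb1a1, a secretoglobin gene of club cells), the AT2-Tracer library for ZsGreen (switched on from Sftpc, a surfactant gene of alveolar type 2 or AT2 cells) and the BASC-Tracer library for both colours. Each group is 1 library, and the labels do not say how many animals were pooled in it.

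Tropomyosins, caldesmon, transgelin and myosin light chain act on actin filaments: tropomyosin lies along the filament, caldesmon and transgelin bind to it, and the regulatory light chain of myosin II sets contraction when phosphorylated. Acta2 is the smooth muscle actin that defines myofibroblasts in injured lung. Sparc and Igfbp7 encode secreted proteins of the matrix. In lung repair, AT2 cells pass through a flattened state rich in Krt8 before they become the thin alveolar type 1 (AT1) cells that line the air spaces. Many contractile genes are known targets of serum response factor, which binds a 10-base element called the CArG box.

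After filtering the libraries held 3196, 1402 and 5859 cells (Club-Tracer, BASC-Tracer and AT2-Tracer, the order used throughout), with medians of 15406, 15222 and 9682 UMIs. Epithelial cells numbered 2560, 941 and 2894. Between libraries, 6 to 23 kept barcodes were shared by a pair. Immune cells (Ptprc with no Epcam) made up 27, 99 and 1470 cells, so the AT2-Tracer library held many cells that go against its epithelial label. With 1 library for each group there is no replicate check and no test between groups was possible. Levels are CPM, the UMIs of a gene per 1000000 UMIs summed over the cells of a class, with exact Poisson 95% intervals. These intervals cover counting error only, not the spread between cells or animals. PCR and capture error are outside them too.

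The gene bodies, in GENCODE's annotation of GRCm38, are all protein coding. Tpm1 (ENSMUSG00000032366) lies at chr9:67022590-67049406, and Tagln (ENSMUSG00000032085) on the same chromosome at chr9:45929619-45936058. Tpm2 (ENSMUSG00000028464) lies at chr4:43514711-43523765, Myl9 (ENSMUSG00000067818) at chr2:156775420-156781658 and Cald1 (ENSMUSG00000029761) at chr6:34598500-34775473. Acta2 (ENSMUSG00000035783) lies at chr19:34241090-34255590, Sparc (ENSMUSG00000018593) at chr11:55394500-55423183 and Igfbp7 (ENSMUSG00000036256) at chr5:77349240-77408041.

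Because most of these genes were high in the same gated class, their promoter windows were read from RefSeq (GRCm38.p6) and searched for the CArG box in the 250 bases before the start site. The box is CC, then 6 bases that are each A or T, then GG; the search ran over both strands and allowed 1 base off. RefSeq windows were matched for 7 of the 8 genes, all but Tagln. Of those, 4 held at least 1 match: Tpm1, Myl9, Cald1 and Acta2. Over all 27025 genes with a window, 21.1% held such a match and 1.62% an exact one. The matches are printed 5′ to 3′ on the gene's strand, with the match in capitals and 10 bases on each side.
Myl9, chr2:156775293-156775322 (+): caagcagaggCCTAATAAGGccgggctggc
Myl9, chr2:156775355-156775384 (+): cattcttctgCCTTGTAAGGccgggcggcc
Acta2, chr19:34255438-34255467 (-): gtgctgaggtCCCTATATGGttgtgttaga
Acta2, chr19:34255388-34255417 (-): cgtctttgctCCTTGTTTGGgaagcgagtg
Tpm1, chr9:67049415-67049444 (-): gctcgggtccCCATATATAGtcatatccac
Tpm1, chr9:67049274-67049303 (-): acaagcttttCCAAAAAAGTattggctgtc
Cald1, chr6:34598291-34598320 (+): acggtttcaaGCTTTTTAGGacttggtttt
The first Myl9 match was the only exact CArG box among the 7, starting 161 bases before the start site; the other 6 were 1 base off. Both Acta2 stretches, and the Tpm1 stretch nearer the start site, overlap an exon annotated by GENCODE. No match lay in the windows of Tpm2, Sparc or Igfbp7. A match describes these letters and says nothing of binding in these cells.

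In the AT2-Tracer library Tpm1, Tpm2, Myl9, Cald1, Acta2 and Tagln were highest, among the gated epithelial classes of 20 or more cells, in cells with a high share of Krt8, Cldn4, Sfn and related transcripts and without the AT2, AT1, club, ciliated or basal gates. In the Club-Tracer library Tpm2 and Acta2 were higher in basal cells, and Tpm2 in AT1-gated cells too. The Krt8-rich cells are called transitional-gated here and numbered 230, 103 and 439. They carried Krt8 at 2717, 2934 and 4027 CPM, against 680, 629 and 740 CPM in the 459, 365 and 1440 AT2-gated cells, values that the gate itself sets, and their Sftpc was 661, 1968 and 3134 CPM against 73900, 74769 and 95202 CPM. The question was whether the 8 genes mark this state in each lineage. A gene was counted as apart at a factor of 2 on the scale log2((CPM + 5)/(CPM + 5)), which understates differences of low genes and is a size, not a test. Of the 8 genes, 6, 7 and 8 were at least 2-fold higher in transitional-gated than in AT2-gated cells, with 6, 8 and 7 of the 8 at 20 CPM or more in either class. Over all genes at 20 CPM or more, 8.66%, 9.16% and 11.5% were; under that same limit the members gave 4 of 6, 7 of 8 and 7 of 7, since Acta2 and Tagln of the Club-Tracer library lay under it. The median log2 ratio of the 8 genes was 1.89, 2.52 and 2.80, and that of all genes 0.34, 0.35 and 0.37. The 8 genes were chosen with earlier results of these data known, so their excess over all genes is not independent support.

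**Figure D1:**
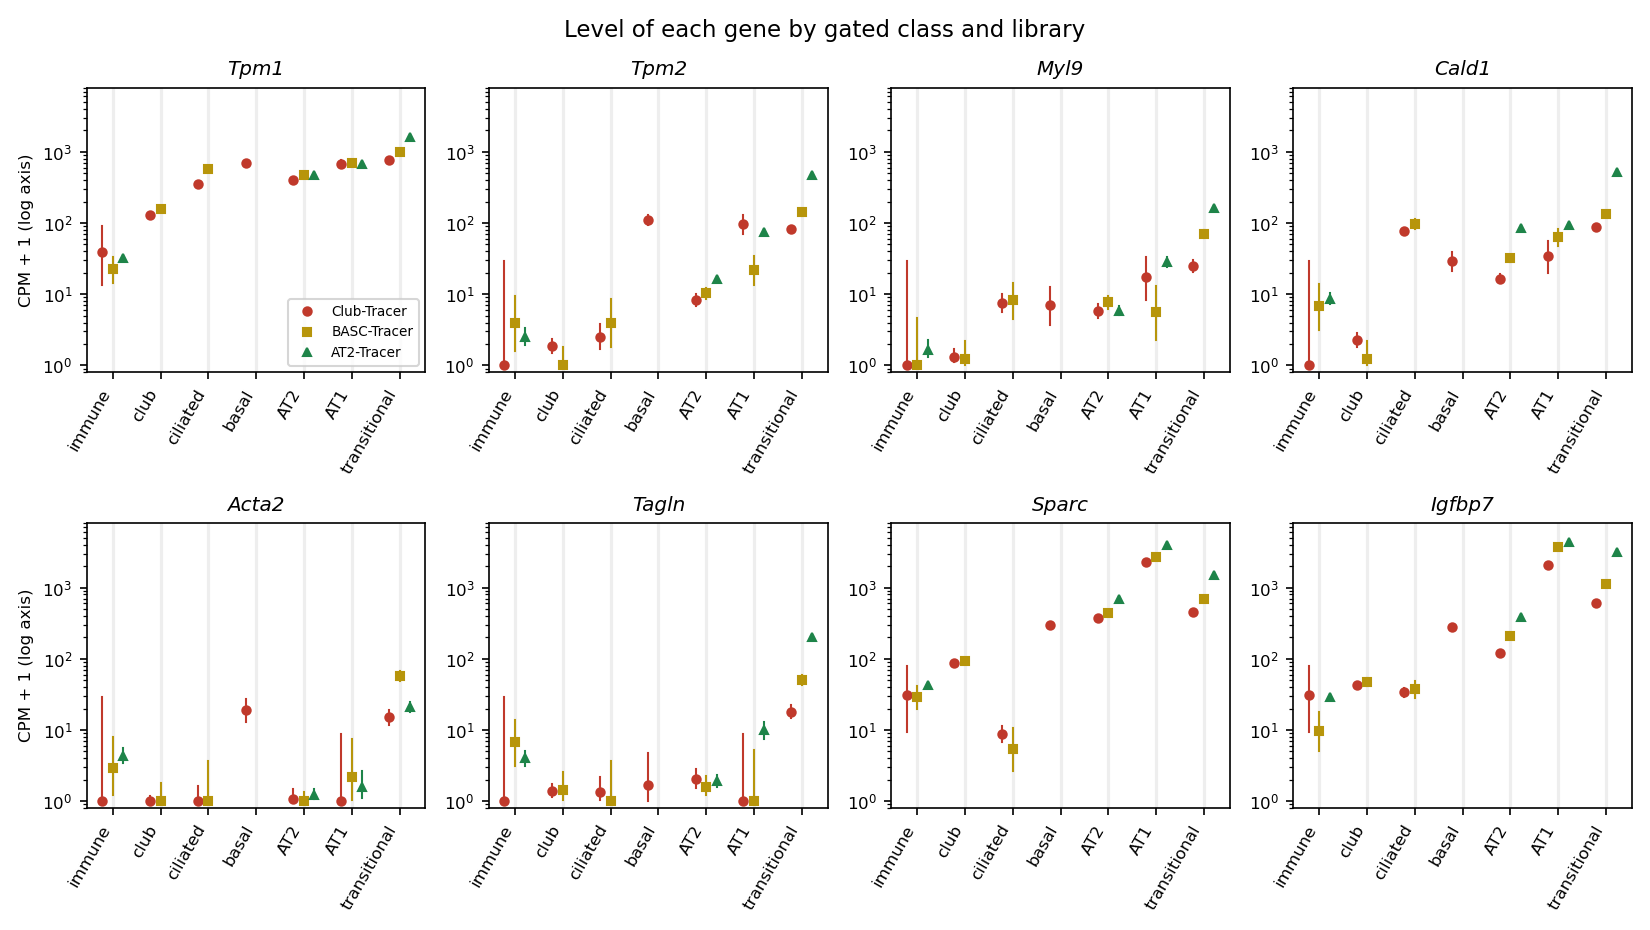
Level of each gene (CPM + 1, log axis) in immune cells and 6 gated epithelial classes, by library, where a class held 20 or more cells; points are summed UMIs and bars exact Poisson 95% intervals, many smaller than the points. Tpm1, Tpm2, Myl9, Cald1 and Tagln of the AT2-Tracer library are highest in transitional-gated cells, and Sparc and Igfbp7 are highest in AT1-gated cells in all 3 libraries.

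Tpm2, a tropomyosin of slow and smooth muscle filaments, stood at 80.3, 140 and 473 CPM in transitional-gated cells and at 7.31, 9.26 and 15.2 CPM in AT2-gated cells. The ratio was 10.99 (95% interval 8.63 to 14.1), 15.1 (12.0 to 19.0) and 31.2 (28.1 to 34.6). All 3 transitional values were thus above all 3 AT2 values. Tpm1, the more widely expressed tropomyosin, was present in both classes, at 757, 990 and 1628 CPM against 402, 476 and 466 CPM. Its ratio was 1.88 (1.80 to 1.97), 2.08 (1.99 to 2.18) and 3.49 (3.41 to 3.58), so the Club-Tracer value missed the factor of 2. Without the highest cell the BASC-Tracer log2 ratio of Tpm1 was 0.94, also short of it.

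Myl9, the regulatory myosin light chain of smooth muscle and other contractile cells, stood at 24.1, 68.9 and 161 CPM in transitional-gated cells. In AT2-gated cells it was 4.90, 6.75 and 4.86 CPM, nearly level across libraries. The ratio was 4.92 (3.53 to 6.93), 10.2 (7.73 to 13.6) and 33.2 (27.7 to 40.1). In the BASC-Tracer library 1 cell held 51.5% of the Myl9 and 42.6% of the Tpm2 UMIs of transitional-gated cells; without it the log2 ratios were 2.03 and 2.93, still past the factor of 2. Cald1, caldesmon, stood at 87.8, 132 and 517 CPM against 15.5, 30.8 and 83.1 CPM. Unlike the Myl9 level, the Cald1 level of AT2-gated cells itself climbed from the Club-Tracer to the AT2-Tracer library, and the class ratio was 5.66 (4.72 to 6.80), 4.27 (3.67 to 4.98) and 6.22 (5.90 to 6.56).

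Acta2 and Tagln were nearly absent outside a few cells. Acta2 had 1, 0 and 6 UMIs in all AT2-gated cells, where 3 UMIs, the limit that a count of 0 allows, come to 0.29 CPM in the BASC-Tracer library. In transitional-gated cells it had 64, 159 and 143 UMIs, or 14.0, 55.9 and 19.8 CPM. Against the floor of 3 UMIs in AT2-gated cells, the BASC-Tracer level was at least 193-fold higher. These UMIs sat in 4, 2 and 8 cells, and the single highest cell held 95.3%, 99.4% and 75.5% of them. Without the highest cell in each class, an alternative chosen after seeing the data, Acta2 in transitional-gated cells came to 0.66, 0.36 and 4.86 CPM, and its log2 ratio fell from 1.90, 3.61 and 2.25 to 0.18, 0.10 and 0.98. The 2-fold call of Acta2 therefore rests on 1 cell in each library.

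Tagln, transgelin, an early smooth muscle gene, had 78, 141 and 1473 UMIs in transitional-gated cells, in 10, 4 and 47 cells. Its level was 17.1, 49.6 and 204 CPM, against 1.07, 0.58 and 0.90 CPM in AT2-gated cells. The ratio was 16.0 (8.66 to 32.3), 85.7 (38.4 to 237) and 228 (152 to 356). The highest cell held 56.4%, 95.7% and 23.5% of the UMIs. Left out, the log2 ratio stayed above the factor of 2 in the Club-Tracer and AT2-Tracer libraries, at 1.08 and 4.81, and was 0.38 in the BASC-Tracer library. In the AT2-Tracer library 24 epithelial cells had 5 or more Tagln UMIs, and 21 of them were transitional-gated.

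**Figure D2:**
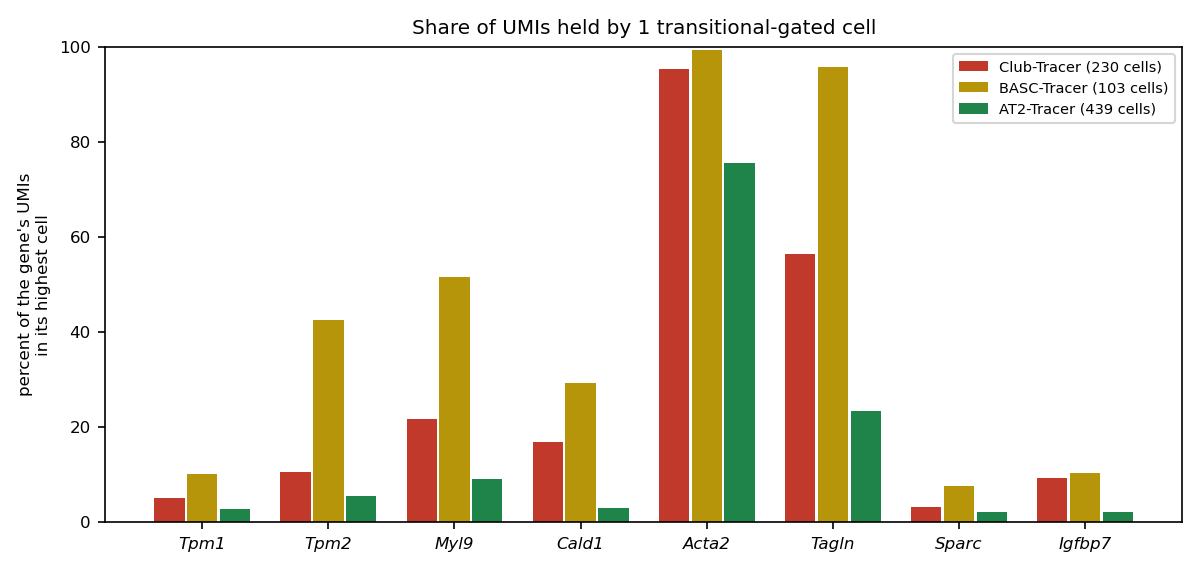
Percent of each gene's UMIs in transitional-gated cells that its single highest cell held, by library; bars start at 0. Acta2 stands between 75.5% and 99.4%, while for Tpm1, Sparc and Igfbp7 the highest cell held between 2.21% and 10.5%.

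The cells with most Acta2 were epithelial by their other transcripts. In the BASC-Tracer library 1 cell of 57263 UMIs was the highest for Acta2 and for Tagln, with 158 and 135 UMIs, along with 169 Tpm2, 101 Myl9, 245 Krt8 and 29 Epcam UMIs. It carried both reporters (38 tdT and 413 ZsGFP UMIs), 9 UMIs of Cnn1, the calponin of smooth muscle, and 1 of Myh11, the smooth muscle myosin heavy chain, with none of Col1a1, Col1a2, Col3a1, Dcn, Des or Actg2. The highest Acta2 cell of the Club-Tracer library, with 14171 UMIs, had 61 Acta2, 20 Epcam and 59 Krt8 UMIs and none of Tagln, Cnn1 or the same fibroblast genes; it also had no reporter UMI. That of the AT2-Tracer library, with 25050 UMIs, had 108 Acta2, 94 Tagln, 294 Krt8 and 25 Cnn1 UMIs, 117 ZsGFP UMIs, and again none of the fibroblast genes, Myh11 or Des. With Scrublet doublets left out, the Acta2 log2 ratio was 1.92, 3.61 and 2.25.

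Fibroblast, smooth muscle and pericyte markers were low in transitional-gated cells, and 1 mesothelial marker was not. The fibroblast and smooth muscle sums, though low, were larger in value than those of AT2-gated cells in all 3 libraries. Col1a1 is among the fibroblast markers, and the epithelial gate left out cells with 2 or more Col1a1 UMIs. The low fibroblast level is thus set in part by that gate. Of the 8 fibroblast markers 2, 3 and 4 had a UMI, and the list summed to 3.29, 3.17 and 6.51 CPM, against 0.45, 0.10 and 1.57 CPM in AT2-gated cells, with Col3a1 and Lum at 0 in all 3 libraries. Of the 7 smooth muscle markers 1, 4 and 4 had a UMI, and the list summed to 0.88, 5.98 and 16.6 CPM against 0.62, 0.97 and 1.79 CPM in AT2-gated cells, with Des and Pln at 0 in all 3 libraries. Cnn1 made up most of the AT2-Tracer value, at 14.0 CPM, while Myh11 stood at 0, 0.35 and 0.14 CPM. Of the 6 pericyte markers 2, 2 and 3 had a UMI, and the list summed to 12.5, 10.2 and 5.82 CPM against 12.1, 18.1 and 18.5 CPM in AT2-gated cells. The 5 mesothelial markers summed to 163, 59.4 and 70.6 CPM against 4.81, 1.45 and 1.12 CPM, nearly all from Msln, mesothelin, at 143, 53.1 and 68.5 CPM, with Wt1 at 0 in all 3 libraries. The myoepithelial markers summed to 46.5, 29.9 and 32.1 CPM in transitional-gated cells against 98.2, 110 and 58.4 CPM. The lower sum came from Mylk alone, at 25.2, 26.0 and 17.6 CPM against 98.1, 109 and 58.2 CPM. The rest of each sum was larger in transitional-gated cells. The part of these transcripts in the levels of the 8 genes was not tested.

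**Figure D3:**
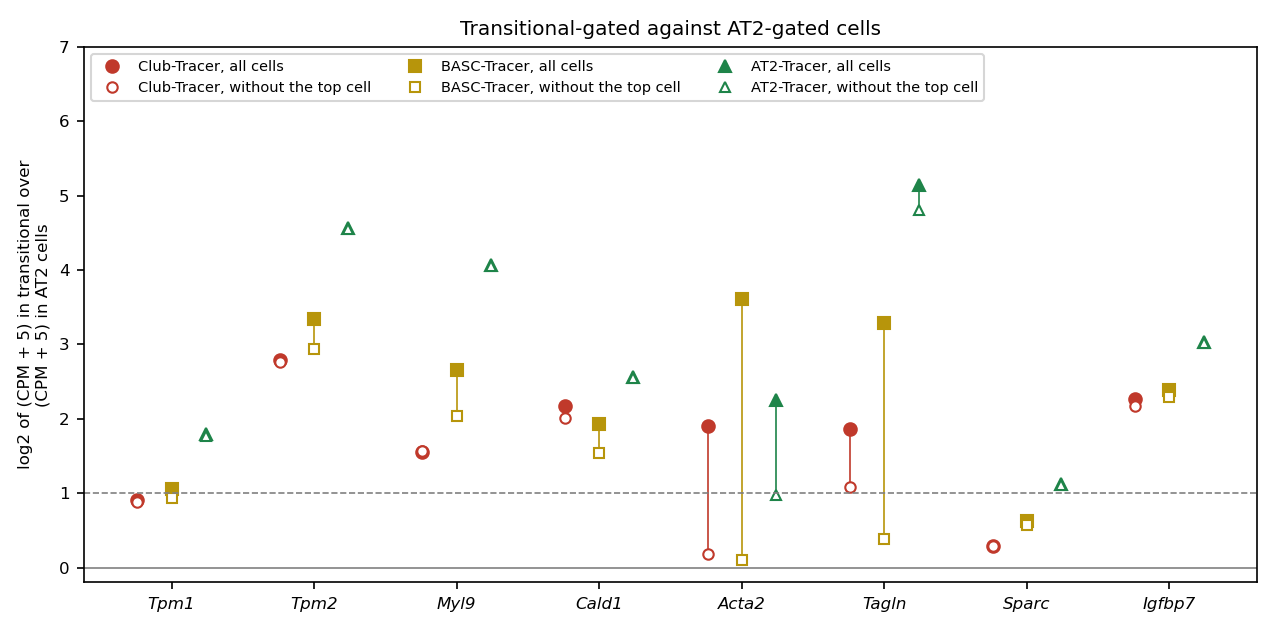
Ratio of transitional-gated to AT2-gated cells for each gene and library, as log2((CPM + 5)/(CPM + 5)), with all cells (filled) and without the highest cell of that gene in each class (open); the dashed line marks a factor of 2. Acta2 falls below the line in all 3 libraries without 1 cell, Tagln and Tpm1 in the BASC-Tracer library only, and Tpm2, Myl9, Cald1 and Igfbp7 stay above it.

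Sparc and Igfbp7 followed another order. Igfbp7 was higher in transitional-gated than in AT2-gated cells, at 596, 1106 and 3205 CPM against 120, 207 and 388 CPM, with ratios of 4.98 (4.66 to 5.32), 5.35 (5.07 to 5.66) and 8.26 (8.07 to 8.45). Sparc, which binds collagen, differed less, at 449, 680 and 1505 CPM against 368, 437 and 686 CPM, and passed the factor of 2 in the AT2-Tracer library alone (2.19, 2.14 to 2.25). Both genes were highest in AT1-gated cells (48, 64 and 571 cells). There Sparc stood at 2288, 2691 and 3907 CPM, which is 5.09-fold (4.73 to 5.48), 3.96-fold (3.73 to 4.21) and 2.60-fold (2.54 to 2.66) its transitional-gated level. Igfbp7 stood at 2078, 3663 and 4431 CPM in AT1-gated cells, 3.48-fold (3.24 to 3.75), 3.31-fold (3.15 to 3.48) and 1.38-fold (1.36 to 1.41) its transitional-gated level.

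The contractile genes were not AT1 genes in the same way. In the AT2-Tracer library, transitional-gated cells were above AT1-gated cells for Tpm1 by a ratio of 2.39 (2.31 to 2.49), for Tpm2 by 6.36 (5.73 to 7.08), for Myl9 by 5.82 (4.90 to 6.96), for Cald1 by 5.66 (5.14 to 6.23) and for Tagln by 22.9 (17.1 to 31.3). In the Club-Tracer library the classes stood closer. Tpm2 was 95.7 CPM in the 48 AT1-gated cells and 80.3 CPM in transitional-gated cells, a ratio of 0.84 (0.62 to 1.17), and Tpm1 and Myl9 had intervals that include 1. Over the set, 3, 5 and 6 of the 8 genes were at least 2-fold higher in transitional-gated than in AT1-gated cells, against 6.68%, 5.64% and 4.25% of all genes, and 2, 2 and 1 were at least 2-fold lower, against 6.95%, 4.71% and 5.59%. At 20 CPM or more, the limit behind these shares, 1 of 6, 5 of 8 and 5 of 7 were higher: Acta2 and Tagln of the Club-Tracer library were under it, with 95.3% and 56.4% of their UMIs in 1 cell. In the BASC-Tracer library 1 cell was the highest for all 5. Without it Cald1, Acta2 and Tagln stood at 94.8, 0.36 and 2.15 CPM, against 62.9, 1.165 and 0 CPM in AT1-gated cells, under the factor of 2. Tpm2 and Myl9 stayed past it, at 81.85 and 34.1 against 20.97 and 4.66 CPM. The genes lower in transitional-gated cells were Sparc and Igfbp7, and in the AT2-Tracer library Sparc alone. The plot of levels by gated class shows this split.

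Club-gated cells were low for most of the genes, and ciliated cells were not low for Cald1. In club-gated cells (672 in the Club-Tracer and 115 in the BASC-Tracer library), Tpm2 stood at 0.85 and 0 CPM, Myl9 at 0.32 and 0.22 CPM, Cald1 at 1.27 and 0.22 CPM, and no Acta2 UMI was found. Tpm1 (130 and 156 CPM), Sparc (85.2 and 93.4 CPM) and Igfbp7 (41.5 and 46.5 CPM) were detected there, each below its AT2-gated level. In ciliated cells (412 and 67) Tpm1 stood at 351 and 567 CPM, Myl9 at 6.52 and 7.37 CPM, Cald1 at 76.7 and 96.5 CPM and Sparc at 7.86 and 4.42 CPM. Cald1 in transitional-gated cells of the same libraries was 87.8 and 132 CPM. Of all epithelial Cald1 UMIs there, ciliated cells held 37.9% and 13.0%, and transitional-gated cells 33.0% and 37.1%. In the Club-Tracer library Cald1 was 60.4-fold (40.1 to 95.2) higher and Sparc 10.9-fold (8.12 to 14.8) lower in ciliated than in club-gated cells. Of the 8 genes 3 were at least 2-fold higher (Tpm1, Myl9 and Cald1) and 1 lower (Sparc). At 20 CPM or more, 2 of 4 were higher and 1 lower, against 52.7% and 3.1% of all genes. The share of members higher was thus near that of all genes.

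Basal cells, gated on Krt5, numbered 91 in the Club-Tracer library and at most 4 in the others. They held Tpm1 at 690 CPM and Tpm2 at 110 CPM (94.2 to 129 by the interval), both near the transitional-gated level, but Myl9 at 6.02 and Tagln at 0.67 CPM. Acta2 came to 18.1 CPM, with 21 of its 27 UMIs in 1 cell, and to 4.04 CPM without it. Of the 8 genes, 7 were at least 2-fold higher in basal than in club-gated cells, all but Tagln, against 41.4% of all genes. At 20 CPM or more, the limit behind that share, 5 of 5 were.

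The same climb was seen along the transitional score, with cells of all gates included. The score is the UMIs of the 12 transitional markers per 10000 UMIs of a cell, and epithelial cells of all classes were binned on it. Tpm2 in the AT2-Tracer library stood at 4.83, 13.2, 47.1, 229 and 610 CPM in cells with scores under 25, from 25, from 50, from 100 and from 200. In the Club-Tracer library it stood at 0.98, 3.24, 17.5, 31.6 and 163 CPM, and in the BASC-Tracer library at 1.57, 5.41, 17.8, 34.5 and 279 CPM. Each step was upward in every library. Myl9 went from 0.89 to 53.8, from 0.17 to 139 and from 1.76 to 215 CPM between the lowest and the highest bin, and Tpm1 from 166 to 1045, from 292 to 1370 and from 370 to 1985 CPM. In the highest BASC-Tracer bin 1 cell held 101 of the 179 Myl9 and 169 of the 360 Tpm2 UMIs. Cald1 stayed flat below a score of 50 in the AT2-Tracer library (77.4 and 78.3 CPM) and reached 691 CPM at the top.

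Tagln was low below the top bin, and its top-bin values rest on few cells in 2 libraries. It stayed under 1 CPM in all bins under 200 of the Club-Tracer and the BASC-Tracer library and was 39.9 and 108 CPM above. Of the 72 Tagln UMIs in the Club-Tracer top bin, 44 and 22 sat in 2 cells, and of the 139 in the BASC-Tracer one, 135 sat in 1 cell. In the AT2-Tracer library it went from 1.21 and 1.01 CPM through 5.20 and 24.7 to 336 CPM. Sparc changed least, from 734 to 1544 CPM in the AT2-Tracer library, where its highest bin was that from 100 to 200, at 1664 CPM. Median depth in the bins ran between 15931 and 21301, between 22830 and 30358 and between 13146 and 16915 UMIs.

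**Figure D4:**
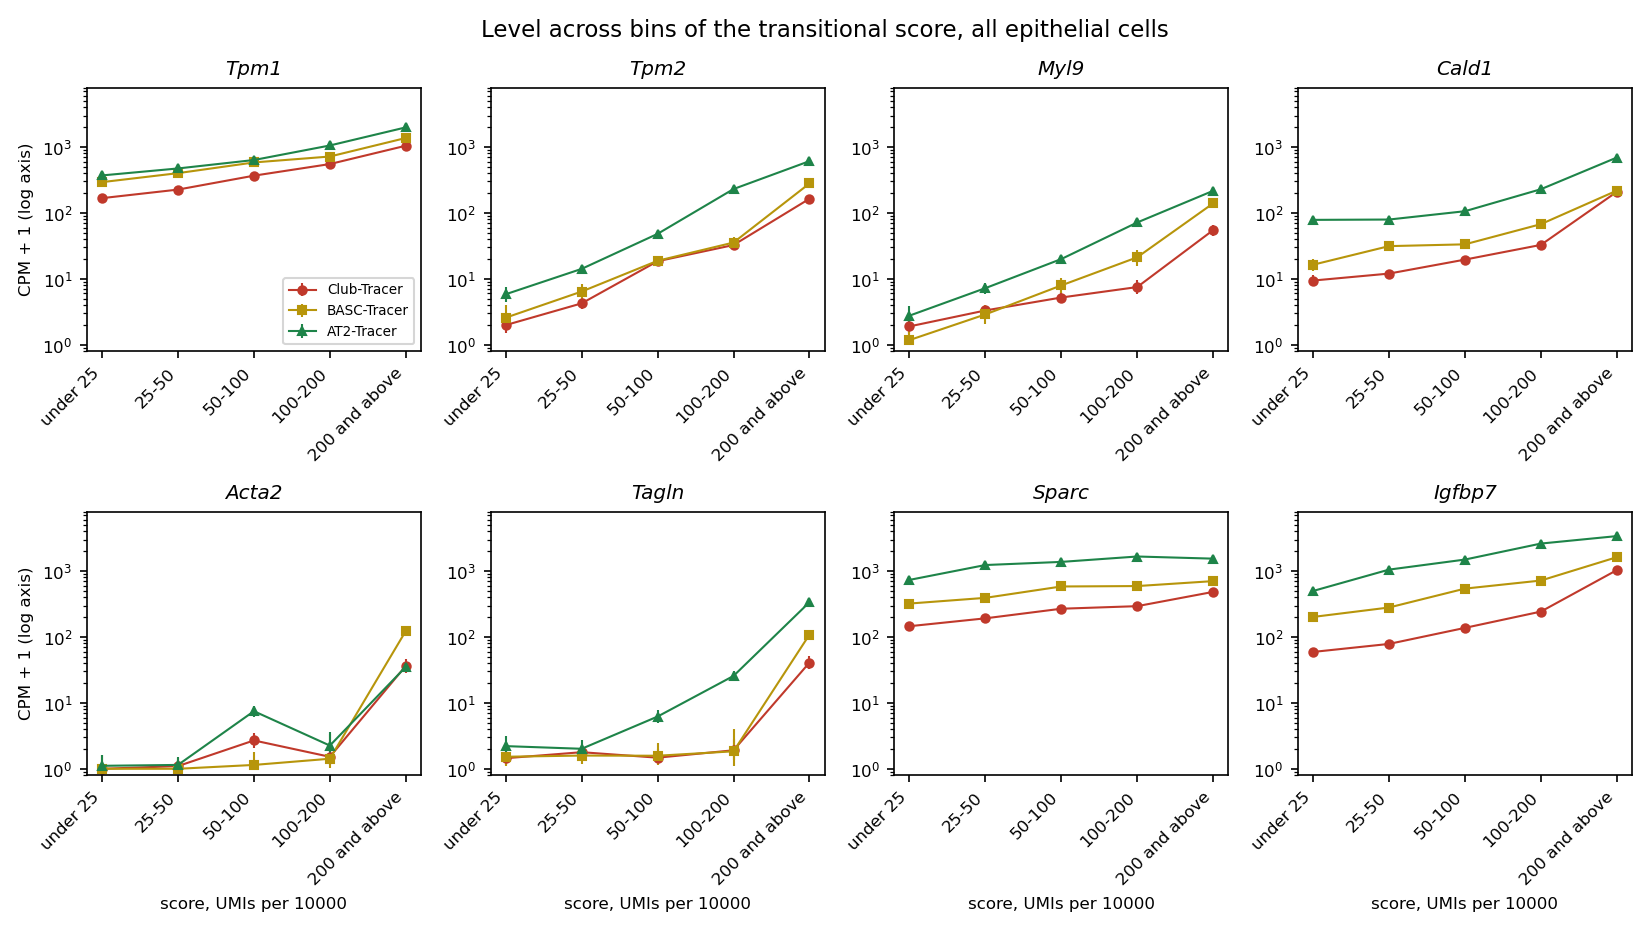
Level of each gene (CPM + 1, log axis) in epithelial cells of all classes binned by the transitional score, by library, with exact Poisson 95% intervals. Tpm2 climbs from 4.83 to 610 CPM in the AT2-Tracer library, Tagln is highest in the bin from 200 up, which in the BASC-Tracer library is 1 cell with 135 of 139 UMIs, and the AT2-Tracer line lies above the Club-Tracer line in all bins except for Acta2.

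Inside the AT2 gate, where cells keep surfactant transcripts, Tpm1 and Tpm2 were higher in each further bin of 20 or more cells in all 3 libraries; none of the other 6 genes was so in all 3. Tpm2 stood at 1.13, 2.41, 18.1 and 22.5 CPM in the Club-Tracer and at 2.60, 5.51 and 8.94 CPM in the BASC-Tracer library. Myl9 of the Club-Tracer library had no such order, at 2.26, 7.62, 3.75 and 0 CPM, nor had Cald1 of the BASC-Tracer library, at 20.2, 42.5 and 24.3 CPM. AT2-gated cells of the AT2-Tracer library had Tpm2 at 3.82, 9.30, 26.2 and 65.0 CPM across the 4 bins from under 25 to 100-200 (474, 566, 332 and 60 cells), and Myl9 at 0.49, 4.46, 7.07 and 24.4 CPM. Tagln stayed between 0.74 and 1.20 CPM over these bins. Cald1 lay between 80.0 and 112 CPM.

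A second axis was the AT1 score, the UMIs of 12 AT1 markers per 10000. Among transitional-gated cells of the AT2-Tracer library, Sparc stood at 800, 1343 and 2293 CPM in cells with AT1 scores under 25, from 25 and from 75 (109, 191 and 139 cells), while Tpm1 stood at 1996, 1631 and 1343 CPM. In that library Sparc and Tpm1 thus ran in opposite directions along the score. In the Club-Tracer library Tpm1 stood at 797, 749 and 669 CPM while Sparc stood at 256, 501 and 834 CPM, but in the BASC-Tracer library both went up, Tpm1 at 859, 1036 and 1056 CPM and Sparc at 169, 758 and 1177 CPM. Tagln in the AT2-Tracer library was 713 CPM in the cells under 25 and 34.3 and 78.5 CPM in the others. The median transitional score of that library moved with these bins, at 234, 189 and 166, and its part in these values was not tested.

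Within transitional-gated cells, most of the genes were higher in the AT2-Tracer library. This comparison asks whether the state looks alike in cells labelled through Sftpc and through Scgb1a1. Of the 8 genes, 7 were at least 2-fold higher in the AT2-Tracer than in the Club-Tracer library and none lower; over all genes 4.42% were higher and 4.14% lower. The ratio was 2.15 (2.07 to 2.23) for Tpm1, 5.89 (5.29 to 6.58) for Tpm2, 6.68 (5.49 to 8.20) for Myl9, 5.89 (5.31 to 6.55) for Cald1, 3.35 (3.19 to 3.51) for Sparc and 5.37 (5.16 to 5.59) for Igfbp7. Tagln differed by 11.9 (9.49 to 15.2). Acta2 did not pass, at 1.41 (1.04 to 1.92), and its UMIs sat mostly in 1 cell on each side. Without the highest cell of each gene the count was again 7 of 8.

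The BASC-Tracer library lay between the others for 7 of the 8 genes, all but Acta2, which was highest there through its 1 cell. The place of Tagln rests on the same cell: without the highest cell of each library it stood at 7.49, 2.15 and 157 CPM, lowest in the BASC-Tracer library. Against the Club-Tracer library 3 of the 8 genes were at least 2-fold higher in it (Myl9, Acta2 and Tagln; 2.01% of all genes), and the AT2-Tracer library was at least 2-fold above it in 6 of 8 (1.09% of all genes) and below it in Acta2 (2.67% of all genes). The 3 genes higher in the BASC-Tracer than in the Club-Tracer library rest on that 1 cell too: without the highest cell of each, Myl9 stood at 34.1 against 18.9 CPM, under the factor of 2, Acta2 at 0.36 against 0.66 CPM and Tagln at 2.15 against 7.49 CPM. These comparisons share libraries and are not independent of each other.

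Transitional-gated cells of the AT2-Tracer library also scored higher on the gate itself, so the libraries were set side by side in 2 bins of the score. Scores were not matched within a bin, and the classes in it differed: 71 AT1-gated cells, with Igfbp7 at 3929 CPM, lay in the AT2-Tracer bin from 100 to 200. From 100 to 200, Tpm2 stood at 31.6, 34.5 and 229 CPM, Cald1 at 31.7, 66.5 and 228 CPM and Igfbp7 at 242, 718 and 2616 CPM, in 358, 94 and 368 epithelial cells. From 200 up, in 98, 39 and 224 cells, Tpm2 stood at 163, 279 and 610 CPM, Cald1 at 208, 217 and 691 CPM and Igfbp7 at 1034, 1625 and 3396 CPM. With all cells counted, the order of the libraries was the same in both bins. In the BASC-Tracer bin from 200 up, 1 cell held 169 of the 360 Tpm2 and 110 of the 280 Cald1 UMIs. Its place above the Club-Tracer library for these genes in that bin thus leans on 1 cell. In cells from 200 up, 6 of the 8 genes were at least 2-fold higher in the AT2-Tracer than in the Club-Tracer library; Tpm1 had a log2 ratio of 0.92 and Acta2 of -0.05.

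AT2-gated cells showed this library difference for some of the genes. Cald1 was 5.36-fold (4.59 to 6.29) and Igfbp7 3.24-fold (3.06 to 3.44) higher in the AT2-Tracer than in the Club-Tracer library, the 2 of 8 genes past the factor of 2 (2.83% of all genes). Sparc had a ratio of 1.87 (1.81 to 1.93) and Tpm1 of 1.16 (1.12 to 1.20). Myl9 had a ratio of 0.99 (0.72 to 1.38), with 38.2% of its Club-Tracer UMIs in 1 cell; without the highest cell of each library it stood at 4.19 against 3.04 CPM. Whether the library difference itself differs between the classes was not tested. Immune cells held each of the 8 genes at 41.5 CPM or less in the 3 libraries.

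Shares of cells with a UMI were compared with immune cells, taken to lack the contractile genes and so to show their level of free RNA. Whether immune cells themselves express Tpm1, Sparc or Igfbp7 was not tested. After thinning each cell to 1500 UMIs, 8, 7 and 7 of the 8 genes were found in a larger share of epithelial than of immune cells. Over all genes at 20 CPM or more in either class 45.5%, 55.6% and 63.5% were, a limit not put on the 8 genes. In the Club-Tracer library a gene with no UMI in the 25 immune cells counts as higher from 1 epithelial cell. That count therefore says little for sparse genes. The thinned cells were 2524, 911 and 2809 epithelial and 25, 97 and 1433 immune cells, and 36, 30 and 85 epithelial cells were too shallow. Tpm2 was found in 1.82%, 2.74% and 6.91% of epithelial and in 0%, 2.06% and 0.21% of immune cells, which in the BASC-Tracer library is a difference within counting error (unthinned, 9.92%, 12.1% and 21.5% against 0%, 3.03% and 1.43%). Median depth before thinning was 19025, 23502 and 13932 UMIs in epithelial and 3015, 9331 and 8460 UMIs in immune cells. The exceptions were Tagln in the BASC-Tracer library (0.22% of epithelial and 2.06% of immune cells) and Acta2 in the AT2-Tracer library (0.21% and 0.42%), shares that are at or below background. The 0% of 25 immune cells allows up to 13.7% by the Clopper-Pearson interval.

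In transitional-gated cells of the AT2-Tracer library the intervals of the thinned shares lay above those of immune cells for 7 of the 8 genes, all but Acta2. For the Club-Tracer library, shares of Tpm2, Cald1, Myl9, Acta2 and Tagln lay under the limit that 25 immune cells allow, so a difference was not detectable there. Tpm2 was found in 5.22%, 10.7% and 24.1% of them, Cald1 in 6.09%, 10.7% and 31.9%, and Myl9 in 3.48%, 3.88% and 9.49% (unthinned, 24.8%, 26.2% and 53.1% for Tpm2, 23.0%, 38.8% and 69.5% for Cald1, and 11.3%, 9.71% and 24.6% for Myl9). Acta2 was found in under 1% in each library, at 0.87%, 0.97% and 0.93%. Cells with UMIs of 3 or more of the 8 genes after thinning made up 13.0% (9.0 to 18.1%), 34.0% (24.9 to 44.0%) and 58.6% (53.8 to 63.3%) of transitional-gated cells, 4.61%, 10.7% and 14.2% of AT2-gated cells, 37.8%, 56.7% and 59.8% of AT1-gated cells and 0%, 0% and 0.49% of immune cells. Within the 432 thinned transitional-gated cells of the AT2-Tracer library, Spearman's rho between genes was highest for Tpm2 with Myl9, at 0.42, and for Sparc with Igfbp7, at 0.40. These cells share 1 library, and the counts are sparse.

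The cells that the rule sets apart by Col1a1 went against the name stromal. Cells with 2 or more Col1a1 UMIs numbered 21, 20 and 134, and 18, 18 and 111 of them also held Epcam. Those with Epcam had Krt8 at 3044, 2841 and 3428 CPM. Col1a2, which pairs with Col1a1 in type I collagen, was at 0, 2.27 and 194 CPM, Col3a1 at 2.10, 0 and 135 CPM and Dcn at 0, 0 and 3.41 CPM. They are therefore called cells with Col1a1 and Epcam here. Only 3, 2 and 23 cells had Col1a1 without Epcam, and those of the Club-Tracer and of the AT2-Tracer library carried Col1a2 (11410 and 2437 CPM), Col3a1 and Dcn, whereas the 2 of the BASC-Tracer library had no Dcn UMI and summed macrophage markers of 21610 CPM.

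Cells with 2 or more Col1a1 UMIs were at least 2-fold above epithelial cells in 8, 7 and 8 of the 8 genes, against 19.1%, 13.4% and 6.6% of all genes; the exception was Tagln in the BASC-Tracer library. Restricted to cells without Epcam, an alternative chosen after seeing the data, the counts were 8, 3 and 7 (34.6%, 30.2% and 17.8% of all genes), the middle value from 2 cells. In the 23 Epcam-negative cells of the AT2-Tracer library Acta2 stood at 1236 CPM and Tagln at 1328 CPM, against 77.4 and 261 CPM in the cells with Col1a1 and Epcam and 5.02 and 35.3 CPM in all epithelial cells. Sparc stood at 5812 CPM and Tpm2 at 526 CPM in them. The Tpm2 level of transitional-gated epithelium in that library, 473 CPM, was thus close to that of the Epcam-negative cells, while the Acta2 level, 19.8 CPM, was not.

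**Figure D5:**
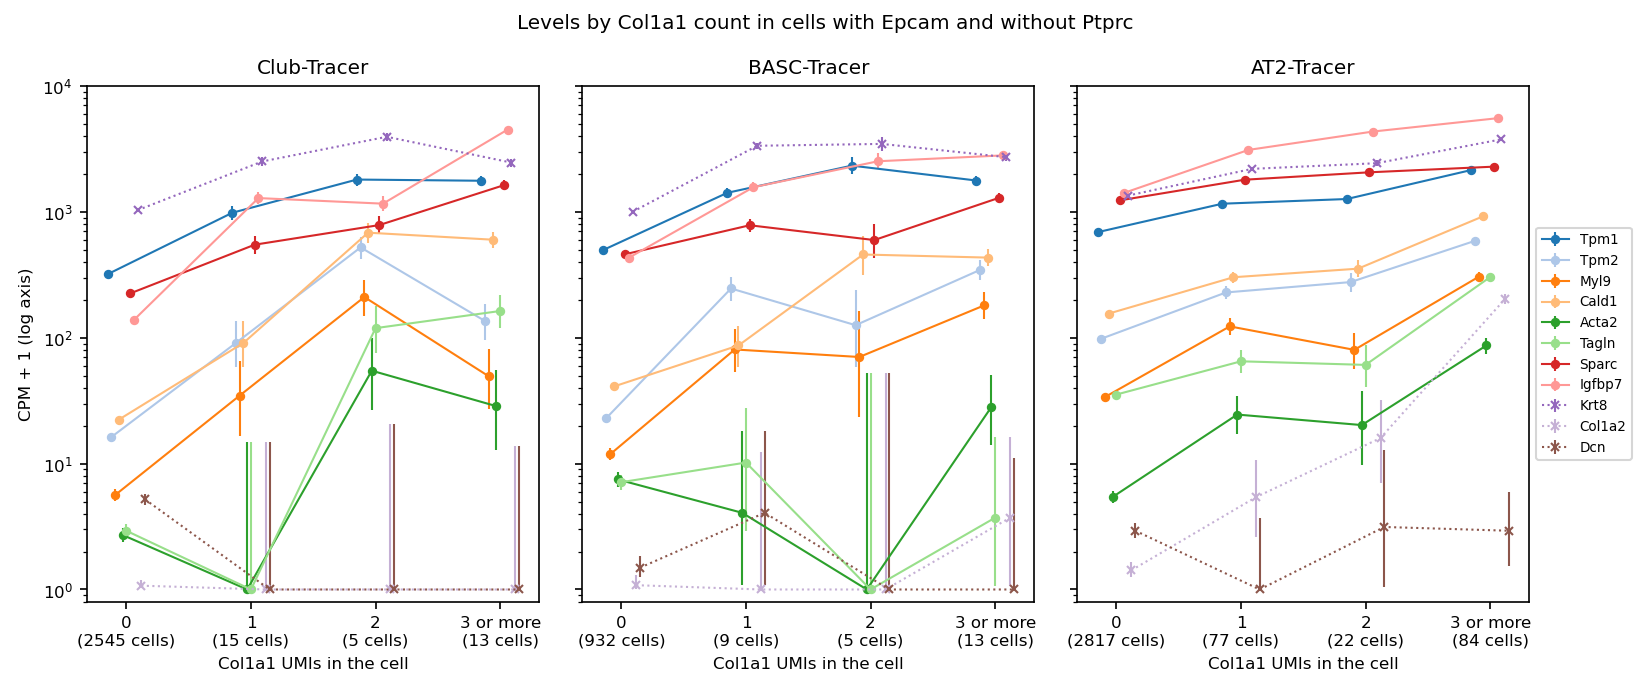
Levels (CPM + 1, log axis, exact Poisson 95% intervals) of the 8 genes and of Krt8, Col1a2 and Dcn in cells with Epcam and no Ptprc, by the number of Col1a1 UMIs in the cell, 1 panel for each library. Tpm1, Cald1 and Igfbp7 are higher in cells with Col1a1 while Dcn stays at or near 0; Col1a2 reaches 203 CPM only in the AT2-Tracer library.

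At the threshold of the rule, Epcam-positive cells with 1 Col1a1 UMI, just inside the epithelial gate, numbered 15, 9 and 77, and those with 2, just outside, 5, 5 and 22. Tpm1 stood at 982, 1416 and 1160 CPM inside and at 1805, 2329 and 1264 CPM outside, and Cald1 in the AT2-Tracer library at 302 CPM inside and 353 CPM outside. At the Epcam threshold, cells with 1 Epcam UMI had Tpm1 at 237, 512 and 514 CPM, and cells with no Epcam, no Ptprc and fewer than 2 Col1a1 UMIs had 233, 404 and 405 CPM, at median depths of 6618, 4954 and 5017 against 3395, 2044 and 2478 UMIs. Cells with Col1a1 and Epcam were at least 2-fold above transitional-gated cells in 8, 4 and 1 of the 8 genes (6.07%, 4.1% and 1.7% of all genes); in the AT2-Tracer library that 1 gene was Acta2, with a ratio of 3.91 (3.14 to 4.87).

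Related genes were read from lists drawn up with earlier results of these data known, as transitional-gated against AT2-gated cells. Of the cytoplasmic actomyosin and adhesion genes, 13 of 24, 13 of 25 and 19 of 26 measured genes were at least 2-fold higher and none lower, with medians of 1.09, 1.08 and 1.41 on the log2 scale. The share over all genes was 8.66%, 9.16% and 11.5%, as above, with medians of 0.34, 0.35 and 0.37; it is the background of each list that follows. Pdlim7, which links actin to signalling proteins, stood at 62.8, 58.0 and 149 CPM against 1.52, 0.58 and 1.42 CPM. Flna, filamin A, an actin crosslinker, had ratios of 4.01, 4.99 and 10.9. Tpm3 (ratios of 1.46, 1.15 and 1.24) and Tmsb4x, which binds actin monomers (0.86, 0.73 and 0.94), were close to even.

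Smooth muscle-type genes were mostly not measurable: 4, 4 and 5 of 17 reached 20 CPM. Cnn3, the calponin of non-muscle cells, had ratios of 3.85, 10.5 and 19.5 and Tagln2 of 2.46, 2.29 and 3.01. Nexn, an actin-binding protein, had ratios of 1.07, 1.05 and 3.23. Mylk, the kinase that phosphorylates the myosin light chain, ran the other way. It stood at 25.2, 26.0 and 17.6 CPM in transitional-gated and at 98.1, 109 and 58.2 CPM in AT2-gated cells, ratios of 0.26 (0.21 to 0.31), 0.24 (0.19 to 0.30) and 0.30 (0.25 to 0.36), and was the 1 gene of that list at least 2-fold lower in each library.

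Genes linked to serum response factor and its cofactors gave 5 of 11, 7 of 12 and 6 of 14 at least 2-fold higher (8.66%, 9.16% and 11.5% of all genes), and 0, 0 and 1 lower. Fhl2, a LIM-domain cofactor, had ratios of 15.4, 51.0 and 62.5, and Ccn2, a matricellular protein, of 14.0, 4.54 and 12.2. Fos and Egr1, the 2 lowest genes of the list, did not share this: Fos had ratios of 0.78, 0.87 and 0.63, and Egr1 of 1.08, 0.92 and 0.47. Of the matricellular and matrix genes 5 of 12, 6 of 12 and 5 of 11 were at least 2-fold higher, beside the same 8.66%, 9.16% and 11.5%. Fn1, fibronectin, stood at 109, 146 and 445 CPM against 6.86, 3.47 and 8.14 CPM. Itgb6, an integrin subunit that activates TGF-beta, had ratios of 8.12, 7.82 and 9.61; it is also 1 of the genes that defined the transitional gate. Lamb3 had ratios of 0.60, 0.74 and 1.69, and Tgfbi of 0.23, 0.42 and 1.49, so both lay under 1 in the Club-Tracer and above 1 in the AT2-Tracer library; 1, 0 and 0 genes of the list were at least 2-fold lower.

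Among IGF-binding genes Igf1r, the receptor, had ratios of 3.65, 3.40 and 13.1 and Igfbp6 of 2.60, 2.51 and 1.85, the only 2 of 7 measured in each library; 2, 2 and 1 of them were at least 2-fold higher. Of the 8 cadherins and mesenchymal transition factors, 1 reached 20 CPM: Cdh1, E-cadherin of epithelial junctions, at 268, 373 and 418 CPM against 154, 188 and 177 CPM. Its ratio was 1.74 (1.61 to 1.87), 1.98 (1.83 to 2.13) and 2.36 (2.26 to 2.47). Cdh2, Zeb1, Zeb2, Snai1, Snai2, Twist1 and Twist2 stayed under 20 CPM in both classes of every library.

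Likeness of pattern was measured as Pearson's r of log2(CPM + 5) over the 20 epithelial class-by-library sums with 20 or more cells, against 5538 other genes. Tpm1 was most like Tpm4 (0.97), Flna (0.97) and Shtn1 (0.96). Tpm2 was most like Lgals1 (0.95), Pdlim4 (0.93) and Psmd11 (0.93), and Myl9 most like Tubb2b (0.93), Vat1 (0.91) and Dusp10 (0.91). Cald1 was most like Ppp1r12b (0.91), Pld3 (0.91) and Atxn10 (0.91). Acta2 was most like Nes (0.89), Wnt10a (0.87) and Fn1 (0.87), and Tagln most like Ntm (0.92), Myl7 (0.90) and Tnfrsf23 (0.84), values that rest on a few cells. Sparc was most like Grn (0.98), Cnn2 (0.97) and Tinagl1 (0.97), and Igfbp7 most like Mical1 (0.97), Myo1c (0.97) and Tprgl (0.97). Within the set, Sparc had an r of 0.90 with Igfbp7 and of 0.29 with Cald1, and Myl9 of 0.89 with Tagln and 0.84 with Tpm2. The 20 sums share 3 libraries and their depths, so these values are descriptions.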

How the data were processed

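The deposited matrices hold UMI counts per gene and barcode, not normalized. Per the submitters' processing notes they were made with Cell Ranger 6.1.1 on mm10; the libraries used 5′ chemistry, per the labels' protocols. No label or header names the annotation release. The members and lists were chosen with earlier results of these data known.

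Cells were filtered (500 genes, 15% mt- UMIs), which left 10457 of 16627 barcodes, and gated on marker UMIs per 10000: AT2 500, AT1 150, club 2000, ciliated 20, upper airway secretory 100, and transitional 100 with no other gate. Cells past more than 1 gate were set aside. Krt5 at 2 UMIs gated basal cells. Doublets were not removed in the values reported; Scrublet (scanpy 1.11.5) was an alternative. Counts were summed by class and library into CPM with exact Poisson intervals; ratios carry exact conditional intervals, and shares exact Clopper-Pearson ones. Thinning used seed 1. Counts for 5252 genes were simulated as Poisson class sums, with the depths of the Club-Tracer comparison of transitional-gated with AT2-gated cells. In them 100% of genes changed 4-fold were called and 96.0% of intervals held the true ratio. The intervals assume the same Poisson error, so the 96.0% follows from how the counts were drawn. It does not cover spread between cells, as in genes with most UMIs in 1 cell.

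Named genes were all 8 members; from each of 6 lists the 2 highest and 2 lowest mean log2 ratios (20 CPM or more); and for each member the 3 genes with the highest Pearson r (50 CPM or more). Python 3.11.15, numpy 2.4.6, scipy 1.17.1, pandas 2.3.3 and matplotlib 3.10.9 were used.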

Additional observations from a re-analysis of the deposited data

How the results depend on the processing

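The results were recomputed with other filters on genes and mt- UMIs, stricter and looser gates and an Epcam minimum of 3 UMIs. Another setting left out epithelial cells with a UMI of Col1a1, Col1a2, Col3a1, Dcn, Pecam1 or Cdh5, and another left out Scrublet doublets. Further settings were other limits on CPM, other pseudocounts, means over cells, scaling without secreted and mt- genes, and other thinning depths. Settings added after seeing the data were leaving out the highest cell of each gene, Epcam-negative Col1a1 cells, any Col1a1 in the epithelial gate and a score of 200 or more. The count of genes at least 2-fold higher in transitional-gated than in AT2-gated cells ranged from 3 to 7 of 8 (Club-Tracer), 4 to 7 (BASC-Tracer) and 7 to 8 (AT2-Tracer). It was 3 in the Club-Tracer library with a pseudocount of 20 CPM, a scale that shrinks low genes, and 4 in the BASC-Tracer library without the highest cell of each gene. Cells with Col1a1 gave 3 of 8 genes in the BASC-Tracer library when those with Epcam were left out, which leaves 2 cells. The count between the AT2-Tracer and Club-Tracer libraries stayed at 6 or 7. The Acta2 log2 ratio between them ran from -0.46 (mean over cells) to 0.94. No called value changed sign. Levels moved more: 79 of 264 alternative member levels in transitional-gated cells lay outside the Poisson interval of the reported level. Igfbp7 in the Club-Tracer library ran from 486 to 902 CPM around 596 CPM. Of the alternative log2 ratios of transitional-gated to AT2-gated cells, 15 of 360 crossed the factor of 2. Of the list medians, 16 of 53 crossed it or fell to 0. No paired analysis was possible because each group is 1 library. Depth limits Acta2, Tagln and Myl9 outside transitional-gated cells, where levels near 1 CPM rest on few UMIs. The automatic Scrublet threshold marked 0.03% and 0.139% of Club-Tracer and BASC-Tracer barcodes and had not worked there, so the 89 and 17 highest scores were left out; it marked 1.68% in the AT2-Tracer library.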
